A study of Sus scrofa with 42 samples.

Results

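The cytosolic ribosomal protein genes were taken by their gene names, as every name that starts with RPL or RPS and a number, RPLP0, RPLP1 or RPLP2, or RPSA, leaving out the RPS6K kinases. The rule found 54 of the 15351 genes of the table, with 53 distinct names, since RPL36AL is listed at 2 places. Of these, 51 passed the filter on low values and were tested, and RPL13, RPL10A and RPS19BP1 did not. The table names fewer ribosomal protein genes than the pig genome holds. A further 13 are listed there by identifier alone and got their names from a reference table of gene names (RPLP1, RPL4, RPS2 and RPS27A among them), so they are not members and are given as a list of their own. RPS6, RPL8, RPL41, RPS14 and 14 other canonical ribosomal protein genes were not analysed here.

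The ribosome has a small subunit that decodes mRNA and a large subunit that joins amino acids, and each ribosomal protein sits in 1 of them, so that all are needed in about equal numbers. Their mRNAs are among the most abundant of growing cells and start with a run of pyrimidines through which mTOR signalling sets how much of them is translated. An oocyte stores ribosomes and mRNAs for the first divisions, and the embryo begins to make its own RNA at zygotic genome activation, which in pigs is placed around the 4-cell stage.

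The values are FPKM, fragments scaled to the length of the gene and the mapped reads of the library, from single cells of pig embryos, 42 cells of 20 embryos. Oocytes from gilt ovaries of a slaughterhouse were matured in vitro, then fertilized in vitro (IVF) or activated without sperm (parthenogenetic activation, PA) by electric pulses followed by 6-DMAP and cytochalasin B. Both methods gave 3 zygotes at 19 h, 6 blastomeres of 3 2-cell embryos at 27 h, 9 blastomeres of 3 4-cell embryos at 48 h and 3 blastomeres of 1 8-cell embryo at 72 h. Blastomeres of 1 embryo are not replicates, so an embryo's value is the mean FPKM of its blastomeres, and n counts embryos. The labels say nothing of separate collections, so the p-values measure the spread between these embryos.

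A gene was called where limma, fitted to log2(FPKM + 1) of all 8116 genes that passed the filter, gave a fold of 2 or more with a Benjamini-Hochberg adjusted p below 0.05. To pass the filter, 3 or more cells had to reach 1 FPKM. All folds are on the log2(FPKM + 1) scale, which understates the change of genes near 0. For the 8-cell embryos, 1 of each method, the spread of the other groups was borrowed. They were compared with each other by their values alone. FPKM are shares of a library, so fewer molecules of an mRNA and more of other RNAs cannot be told apart.

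Between 4282069 and 15002087 reads per cell (median 10166844) were recovered from the steps of the FPKM on the 12829 genes that allowed it, 53 of the 54 ribosomal protein genes included. These genes held 36.2% to 89.0% of a cell's summed FPKM, so the reads recovered are only a part of the library. Oocyte markers such as GDF9, BMP15 and BTG4, with 11 of 14 listed in the table, summed to 306 to 2191 FPKM in the cells of the 1- to 4-cell stages and to 2.83 to 198 FPKM at the 8-cell stage. Of 14 markers of cumulus and granulosa cells, 8 are listed. Their sum was at most 18.5 FPKM at the 1- to 4-cell stages. At the 8-cell stage it was 0.0106 to 100 FPKM, with medians of 5.57 (IVF) and 0.977 FPKM (PA). There DCN had means of 24.3 (IVF) and 29.2 FPKM (PA) and TNFAIP6 was at 0. DCN reached 1 FPKM in only 3 cells of the series. VCAN went the other way in IVF, with means of 5.08, 7.37, 5.89 and 0.153 FPKM from the 1- to the 8-cell stage. In PA its means were 6.52, 5.11, 1.58 and 4.2 FPKM. Of 6 sperm markers AKAP4 alone is listed, at 0 in all IVF zygotes and at FPKM of at least 1 in 2 cells. The part of such cells in the results was not tested. The PA 4-cell blastomeres 1-4 and 2-1 nearly repeat PA 2-cell 1-2 and 2-1, with Pearson's r over all genes of 0.999 in both pairs and at most 0.931 in the other pairs of the 861. Results that rest on PA 4-cell embryos are given with and without them where they change.

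Until the 2-cell stage, the 54 genes made up little of the measured RNA. They summed to 89.6 ± 16.1 FPKM (SD, n = 3) in IVF zygotes and 138 ± 7.27 FPKM in PA zygotes, and to 129 ± 19.6 and 127 ± 40.3 FPKM in the 2-cell embryos, respectively. This was 0.0637% to 0.132% of an embryo's summed FPKM. At the 4-cell stage the 3 IVF embryos went apart, with 96.6, 1229 and 709 FPKM, while the means of the 3 PA embryos lay between 217 and 236 FPKM. The blastomeres behind these PA means ran from 173 to 261 FPKM in embryo 1, from 78.4 to 538 FPKM in embryo 2 and from 130 to 422 FPKM in embryo 3. The 8-cell embryos had 3401 (IVF) and 2985 FPKM (PA), 1.34% and 1.22% of the sum. No p-value is given for this sum, as it is a score over genes chosen together.

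**Figure D1:**
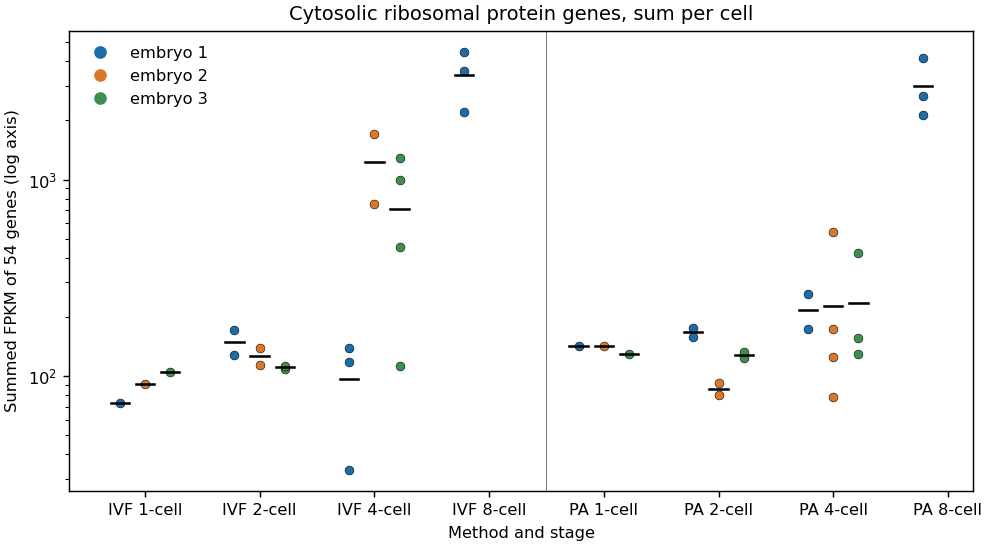
Summed FPKM of the 54 ribosomal protein genes in each of 42 cells (vertical log axis) by method and stage (horizontal axis). Points are cells, coloured by embryo, and bars are the means of an embryo's cells. The 8-cell blastomeres lie between 2127 and 4446 FPKM, and at the 4-cell stage the IVF blastomeres run from 33.3 to 1710 FPKM.

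The sum hides how few of the genes reached 1 FPKM at first. Between 8 and 16 of the 54 had FPKM of at least 1 in a cell of the 1- or 2-cell stage, against 41 to 49 in an 8-cell blastomere. More had a value above 0, with 27 to 41 in a cell of the 1- or 2-cell stage and 47 to 51 in an 8-cell blastomere. Over the 12 embryos of the 1- and 2-cell stages, 16 genes had a mean of at least 1 FPKM, and 38 were below it. The 5 highest (RPS3, RPL15, RPL5, RPLP0 and RPSA) carried 70.9% of the sum in these embryos, and RPS3 alone 37.3%. At the 8-cell stage the 5 highest, which were RPS16, RPS3A, RPS3, RPS9 and RPL7, carried 52.6%.

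**Figure D2:**
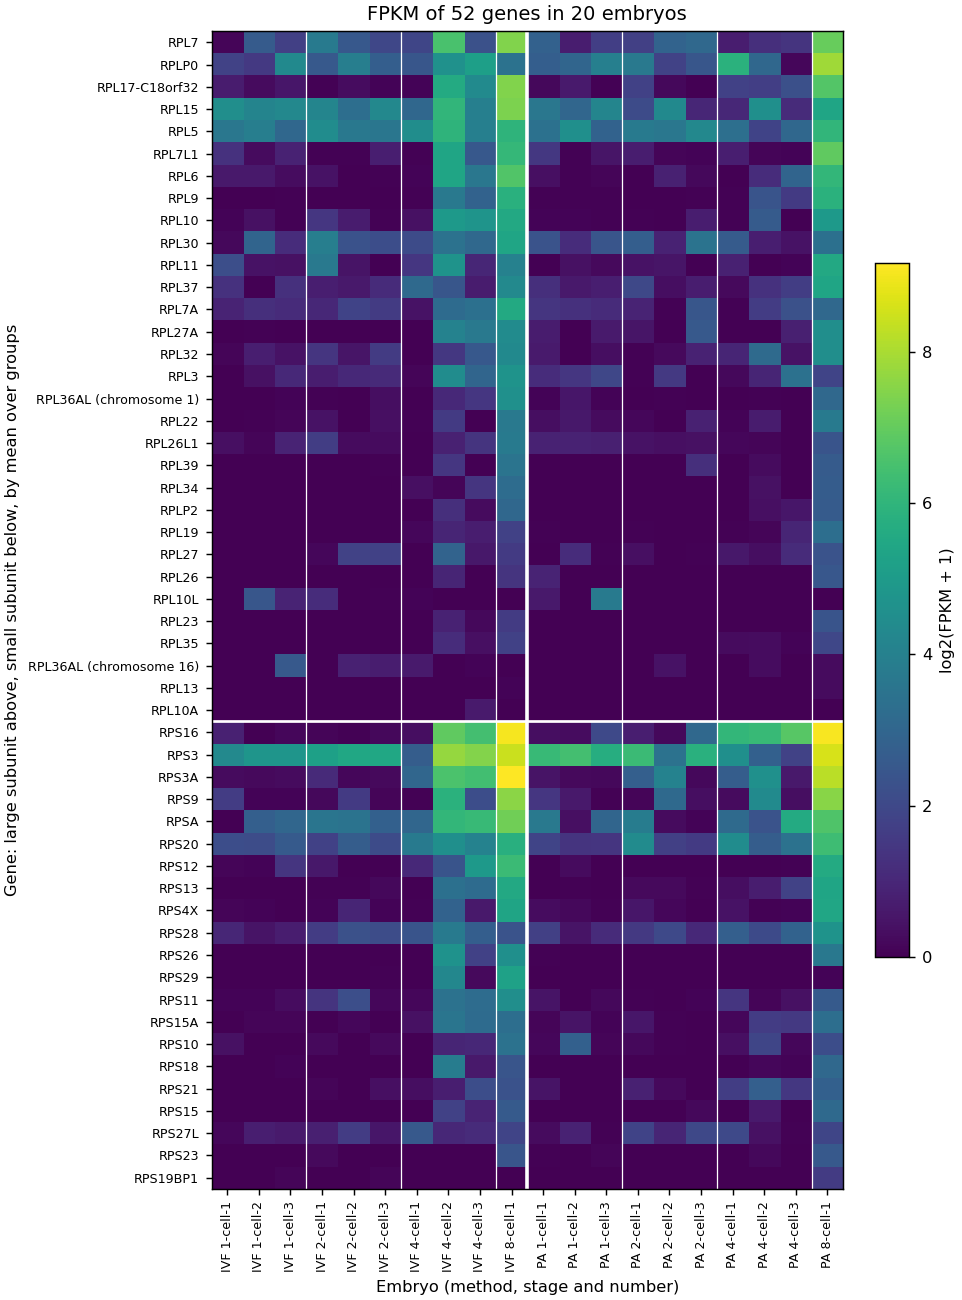
log2(FPKM + 1) of 52 of the genes (rows, large subunit above the white line and small subunit below it) in the 20 embryos (columns, by method, stage and embryo number). RPS3, RPL15 and RPL5 have values in nearly all columns, most other genes are close to 0 until IVF 4-cell embryos 2 and 3, and both 8-cell columns are high for nearly all genes.

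RPS3, a protein at the mRNA entry site of the small subunit, was the most abundant of the early group (ENSSSCG00000014855, chr9:9618623-9631001, plus strand). It had 19, 26.9 and 26.6 FPKM in the IVF zygotes and 71.3, 84.4 and 51.1 FPKM in the PA zygotes. The 2-cell embryos had 35.7, 43.2 and 43.0 FPKM (IVF) and 74.7, 9.97 and 55.6 FPKM (PA). IVF zygotes were thus below PA zygotes without overlap, but the difference was not called (log2 fold change -1.46 ± 1.03, standard error). The IVF 4-cell embryos had 5.49, 210 and 177 FPKM of RPS3, the PA 4-cell embryos 22.7, 5.97 and 2.47 FPKM, and the 8-cell embryos 346 (IVF) and 393 FPKM (PA). With all blastomeres, PA 2- and 4-cell embryos overlapped in RPS3 (-2.12 ± 1.03, not called). Without the repeating blastomeres 1-4 and 2-1 they did not overlap. PA 4-cell embryo 1 then had 3.70 FPKM and the cells of embryo 2 had 2.25 to 5.29 FPKM, below the lowest 2-cell embryo (9.97 FPKM). The fold without these blastomeres is not given here. The step from the PA 4-cell to the 8-cell embryo was called (5.57 ± 1.46).

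RPL5 and RPL11 bind the 5S rRNA and carry it into the large subunit as 1 particle, yet their levels differed. RPL5 had 7.41 to 14 FPKM in IVF zygotes and 6.36 to 22.7 FPKM in PA zygotes, and 11.3 to 21.1 FPKM in the 2-cell embryos of both methods. RPL11 was at 0 to 3.56 FPKM in the zygotes and at 0 to 0.446 FPKM in the 2-cell embryos except IVF embryo 1, with 12 FPKM. In the 8-cell embryos RPL5 reached 62.3 (IVF) and 65.4 FPKM (PA), and RPL11 15.4 and 45.7 FPKM. From the 4- to the 8-cell stage both were called higher in PA (RPL5 3.29 ± 0.94, RPL11 5.22 ± 1.41) and neither was in IVF (1.17 ± 0.94 and 1.64 ± 1.41). The call of RPL5 was lost without PA 8-cell blastomere 1-2 (3.01 ± 0.94). The difference between the methods in this step was not called for either gene (RPL5 -2.12 ± 1.34, RPL11 -3.58 ± 1.99).

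RPL15, a core protein of the large subunit, had 16.5 to 22.3 FPKM in IVF zygotes and 7.16 to 16.9 FPKM in PA zygotes. RPS20, of the head of the small subunit, was at 1.62 to 5.01 FPKM in all zygotes and was 1 of 4 genes that had at least 1 FPKM in each of the 12 early embryos, with RPS3, RPL5 and RPLP0. RPSA, the laminin receptor homologue of the small subunit, was uneven. It had 0.0105, 5.86 and 7.12 FPKM in IVF zygotes and 12, 0.302 and 7.04 FPKM in PA zygotes. By contrast, RPS13, RPS15, RPL23 and RPL35 were at or below 0.179 FPKM in all 12 embryos, and RPL13 and RPL10A were at 0 in them.

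From the 1- to the 2-cell stage no gene of the 51 tested was called in either method. In IVF, 0% of the 8116 genes were called, and in PA 0.0986%, all lower. At an unadjusted p below 0.05 the count of ribosomal protein genes was also 0 in both, beside 216 (IVF) and 394 (PA) of all 8116 genes. The median log2 fold change over the 51 genes was 0.03 in IVF and 0 in PA, beside -0.11 and -0.09 over all genes tested. IVF and PA did not differ by a call at the 1- or the 2-cell stage, where 0.0493% and 0% of all genes were called. No ribosomal protein gene had an unadjusted p below 0.05 at either stage, beside 332 and 441 of all 8116 genes. The change from the 1- to the 2-cell stage differed between methods by a call for 0 of the 51 and 0% of all genes.

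At the 4-cell stage the summed level was high in some IVF embryos and blastomeres and low in others. IVF embryo 1, with 96.6 FPKM in sum, lay at the level of the 2-cell embryos, and its 3 blastomeres had 33.3, 118 and 139 FPKM. Embryo 2 had 1710 and 748 FPKM in its blastomeres. The 4 blastomeres of embryo 3 had 1281, 453, 112 and 991 FPKM, so that sister cells of 1 embryo differed 11.4-fold. The number of genes at FPKM of at least 1 was 4 to 12 in the cells of embryo 1, 25 and 41 in those of embryo 2 and 9 to 34 in those of embryo 3. Mitochondrial mRNAs took 38.0% of the summed FPKM in embryo 1, 26.7% in embryo 2 and 33.3% in embryo 3. The reads recovered on genes ranged from 4282069 to 10195723 in the cells of embryo 1 and from 7231484 to 12434339 in the others. The genes behind these reads held 45.2% to 59.9% of the summed FPKM in the cells of embryo 1 and 53.4% to 68.65% in the others. The part of these differences in the sums was not tested.

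RPS3A (ENSSSCG00000009019, chr8:77889657-77893937, minus strand), a protein of the small subunit near the mRNA exit, was the member called higher from the 2- to the 4-cell stage in IVF. It had 1.16, 0.113 and 0.170 FPKM in the 2-cell embryos and 7.17, 93.3 and 83.3 FPKM in the 4-cell embryos, which do not overlap. The log2 fold change was 4.83 ± 1.08 with an adjusted p of 0.0346. This is 1 of 51 genes, beside 0.616% of all genes called higher. At an unadjusted p below 0.05 there were 16 of the 51, beside 1432 of all 8116 genes in either direction. Over the 51 the median was 0.91, beside -0.23 over all genes tested. The embryos did not overlap, and were higher at the 4-cell stage, for 12 of the 51, against 5.98% of all genes.

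The count in this step turns on IVF 4-cell embryo 1. The share of all genes called is given for the fit with all embryos alone, so the counts below have no such share beside them. Without embryo 1, 15 ribosomal protein genes were called, all higher. The largest log2 fold changes were those of RPS16 (6.55), RPS3A (5.98), RPL17-C18orf32 (4.84), RPL6 (4.33) and RPL10 (4.11). With no share of all genes beside it, this count is not read as particular to these genes. Without IVF 4-cell embryo 2 or 3 the count was 0, and it was also 0 without 1 of the IVF zygotes, 1 of the IVF 2-cell embryos or 1 of the PA zygotes, whichever was left out. RPS16 (ENSSSCG00000020817, chr6:48085672-48088423, minus strand), of the small subunit near the decoding site, shows the split. It had 0.0493 to 0.153 FPKM in IVF 2-cell embryos, then 0.257, 122 and 85.3 FPKM in the 4-cell embryos 1, 2 and 3 (4.43 ± 1.22, not called).

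In PA, RPS16 had the largest fold from the 2- to the 4-cell stage. It had 66.7, 72.3 and 110 FPKM in the 4-cell embryos, against 0.721, 0.152 and 7.58 FPKM in the 2-cell embryos, and it carried 82.9 of the mean 227 FPKM of all 54 genes. The groups do not overlap, the log2 fold change was 4.99 ± 1.22, and the gene was not called. Within embryos it was uneven as well. PA blastomere 2-4 had 283 FPKM and its sisters 4.34, 1.22 and 0.114 FPKM, the last in the repeating 2-1. In embryo 1, blastomere 1-3 had 132 FPKM and the repeating 1-4 had 1.81 FPKM. The RPS16 means of embryos 1 and 2 are thus higher without the repeating blastomeres. No gene of the 51 was called in this step, where 0.382% of all genes were called higher. An unadjusted p below 0.05 was found for 2 of the 51, beside 873 of all 8116 genes in either direction. Without PA 4-cell 1-4 and 2-1, the blastomeres that nearly repeat 2-cell cells, 2 were called. Which genes these were, and the fold of RPS16 in that setting, are not given here. The groups did not overlap, and were higher at the 4-cell stage, for 7 of the 51, against 3.86% of all genes. Over the 51 the median was 0.17, beside -0.17 over all genes.

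**Figure D3:**
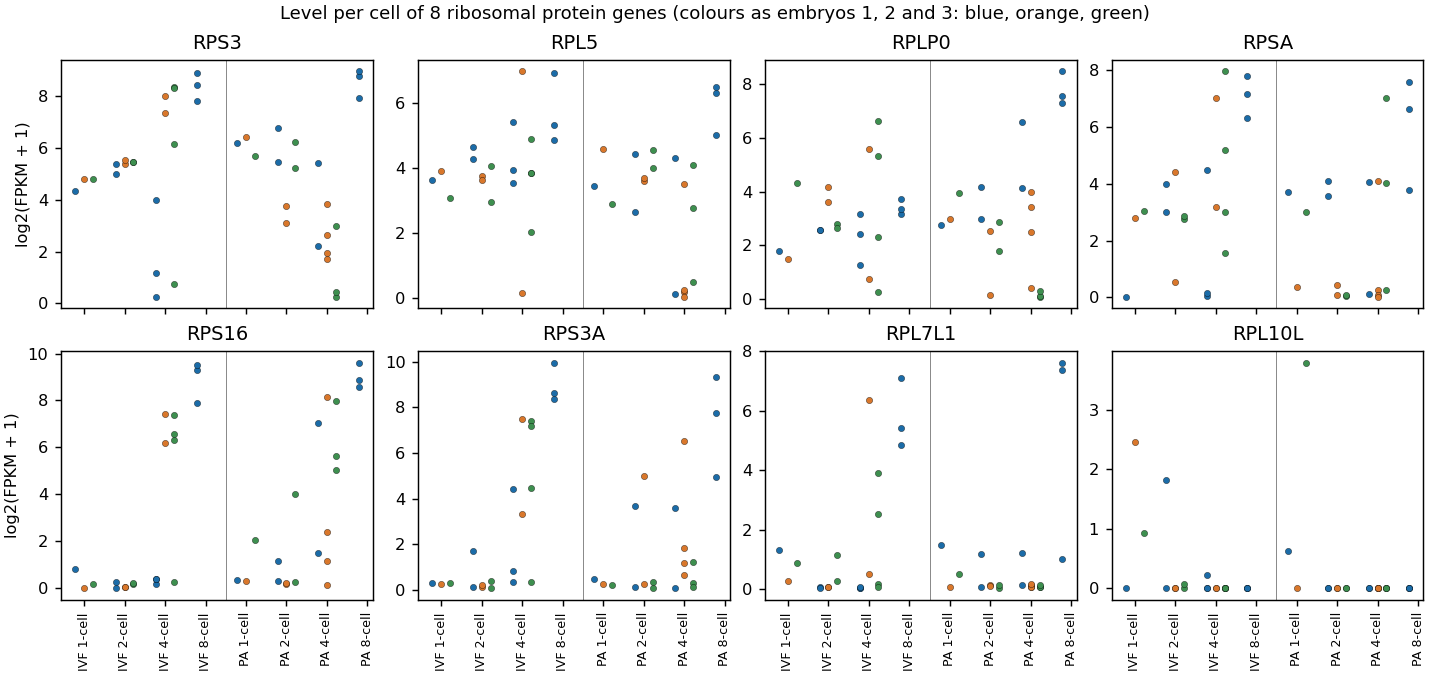
log2(FPKM + 1) of 8 ribosomal protein genes in each of 42 cells (vertical axes) by method and stage (horizontal axes), with points coloured by embryo number. RPS3 and RPL5 are present from the 1-cell stage, RPS16 and RPS3A lie near 0 in most cells until the 4-cell stage and differ between sister blastomeres there, and RPL10L has its highest value in a PA zygote.

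IVF and PA 4-cell embryos were then compared. The median log2 fold change over the 51 genes was 0.99, higher in IVF, beside 0.23 over all genes, and 45 of the 51 were fitted higher in IVF. None was called, against 0.419% of all genes called higher in IVF. An unadjusted p below 0.05 was found for 13 of the 51, beside 1134 of all 8116 genes in either direction. All IVF embryos were above all PA embryos for 5 of the 51, against 9.65% of all genes. RPS12, of the beak of the small subunit, was closest to the threshold, where the IVF embryos had 1.08, 4.25 and 30.3 FPKM and those of PA 0.0109, 0.00797 and 0.0281 FPKM (2.78 ± 0.79, adjusted p = 0.101). Without IVF 4-cell embryo 1, 12 genes were called higher in IVF, among them RPS3 (4.55), RPL10 (3.95) and RPS3A (3.83). Without the repeating PA blastomeres 2 were called. The share of all genes called is not given for either setting. The method by stage interaction in the step from the 2- to the 4-cell stage was called for no ribosomal protein gene and for 0% of all genes. RPS3A had the largest (4.53 ± 1.52). An unadjusted p below 0.05 was found for 4 of the 51, beside 434 of all 8116 genes.

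From the 4- to the 8-cell stage 47 of the 51 genes were fitted higher in IVF and 50 in PA. In IVF, 10 of the 51 were called, all higher, beside 3.72% of all genes called higher. In PA, 29 were called, all higher, beside 6.81% of all genes. An unadjusted p below 0.05 was found for 31 of the 51 in IVF and 38 in PA. Over all 8116 genes it was found for 1574 and 1680, in either direction. The median log2 fold change was 2.47 in IVF and 2.96 in PA, beside -0.38 and -0.15 over all genes tested. The 8-cell embryo was above all 3 4-cell embryos for 41 genes in IVF and 47 in PA, against 20.3% and 25.1% of all genes. The counts turn on the settings, for which the share of all genes called is not given here. In IVF the count ran from 0, with only the 4- and 8-cell embryos of the method in the fit, to 32, with blastomeres as samples, and was 31 with scaling by the median ratio and 24 without 4-cell embryo 2. In PA it ran from 1, with only the 4- and 8-cell embryos, to 38, with scaling by the median ratio. The 8-cell values rest on 3 blastomeres of 1 embryo, and 6 of the 10 calls in IVF and 18 of the 29 in PA held without each of these blastomeres in turn, an alternative chosen after seeing the data.

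A gene that passed the filter only through 8-cell blastomeres had to be higher there. This holds for 10 of the 51, RPL23, RPL26, RPL35, RPL39, RPLP2, RPS18, RPS23, RPS26, RPS29 and RPL36AL of chromosome 1. Over the other 41, chosen by this rule after seeing the data, 5 were called higher in IVF and 20 in PA from the 4- to the 8-cell stage, beside 2.4% and 5.47% of the 7782 genes that pass in the same way. From the 1- to the 8-cell stage 30 and 26 were, beside 4.47% and 6.13%.

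Both methods shared 8 called genes, 80.0% of the IVF calls and 27.6% of the PA calls. Over all genes, 37.1% of those called higher in IVF were called higher in PA, and 20.3% the other way round. Among the 8 are RPL22, RPL34, RPL36AL of chromosome 1, RPL39, RPLP2, RPS23 and RPS4X. Of these, RPL36AL, RPL39, RPLP2 and RPS23 passed the filter only through 8-cell blastomeres, and over the genes that pass otherwise 4 were shared, out of 5 calls of members in IVF and 20 in PA, beside 33.2% and 14.6% of the calls over all such genes. RPS4X, the copy of RPS4 on the X chromosome, had 0.0295, 6.48 and 0.558 FPKM in the 4-cell embryos of IVF and 0.375, 0.0394 and 0.0751 FPKM in those of PA. It had 40.4 and 42.1 FPKM in the 8-cell embryos (4.18 ± 0.90 and 5.22 ± 0.90). RPL22, a protein of the large subunit that also binds other RNAs, had 0.00667 to 1.92 FPKM in all 4-cell embryos and 12.2 and 12.6 FPKM in the 8-cell embryos (3.18 ± 0.68 and 3.51 ± 0.68). Its IVF mean came mostly from 1 cell, since the blastomeres 1-1, 1-2 and 1-3 had 3.26, 33.0 and 0.168 FPKM, and the call in IVF was lost without 1-2 (0.90 ± 0.64). RPL39, a small protein of the exit tunnel, was at 0 in 2 of the 3 4-cell embryos of each method and had 10.4 (IVF) and 5.28 FPKM (PA) at the 8-cell stage (3.03 ± 0.61 and 2.57 ± 0.61). Its call was lost without IVF blastomere 1-1, with 28.7 FPKM (0.72 ± 0.57), and without PA blastomere 1-4, with 12.7 FPKM (1.26 ± 0.59).

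Of the genes called in IVF alone, RPS29 had 0.00754, 18.0 and 0.179 FPKM at the 4-cell and 36.7 FPKM at the 8-cell stage (3.74 ± 1.01), and RPL26L1 had 12.8 FPKM at the 8-cell stage (3.04 ± 0.76). Both rest on IVF blastomere 1-2. The blastomeres 1-1, 1-2 and 1-3 had 11.8, 98.1 and 0.207 FPKM of RPS29 and 3.58, 34.7 and 0 FPKM of RPL26L1, and neither gene was called without 1-2 (1.31 ± 0.98 and 0.74 ± 0.71). In PA, RPS29 was at 0 in all 1-, 2- and 4-cell embryos and at 0.0570 FPKM in the 8-cell embryo. RPS29 overlaps a gene on the other strand whose FPKM followed it over the 42 cells (r = 0.948), so the reads of this pair cannot be told apart where the strand was not counted. The largest rises called in PA were those of RPL7L1 (6.60 ± 1.36), RPL7 (5.92 ± 1.46), RPS9 (5.88 ± 1.83), RPS12 (5.57 ± 1.11) and RPS3A (5.57 ± 1.52). RPL7, of the large subunit, had 0.648, 1.37 and 1.63 FPKM in PA 4-cell embryos and 131 FPKM at the 8-cell stage. RPS12 had at most 0.0281 FPKM in PA 4-cell embryos and 47.3 FPKM at the 8-cell stage. Without PA 8-cell blastomere 1-2, which had 334 FPKM of RPL7 beside 10.3 and 47.4 FPKM in its sisters, RPL7 (3.78 ± 1.46), RPS9 (5.11 ± 1.83) and RPS3A (4.30 ± 1.52) were not called, while RPL7L1 and RPS12 were called without each blastomere in turn.

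**Figure D4:**
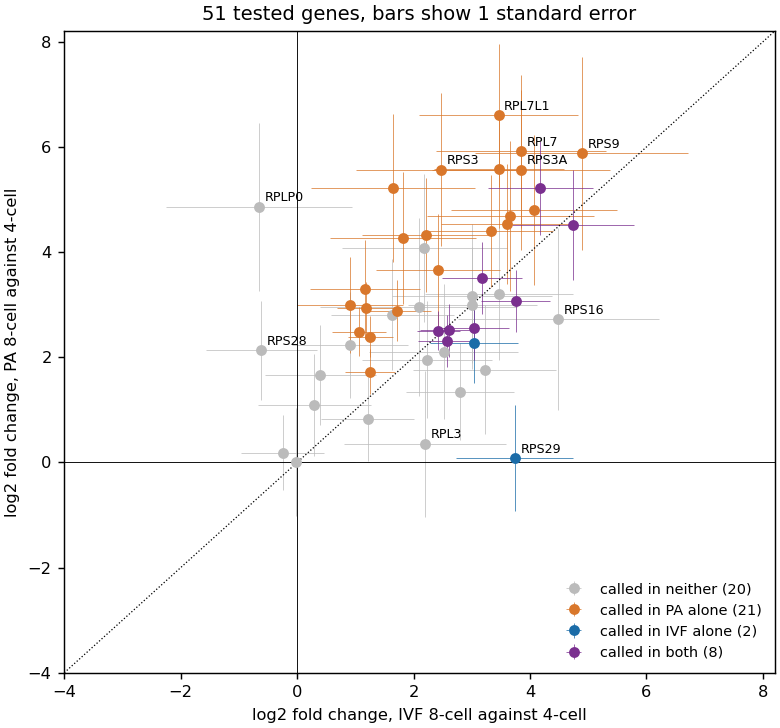
log2 fold changes of the 51 tested genes from the 4- to the 8-cell stage in IVF (horizontal axis) and PA (vertical axis), with bars of 1 standard error and colours for the calls. The dotted line marks equal changes. Of the 51 points, 8 are called in both methods, 21 in PA alone, 2 in IVF alone and 20 in neither, and RPLP0 lies far above the line and RPS29 far below it.

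RPLP0 is the base of the stalk of the large subunit, which recruits translation factors, and RPLP2 is one of the acidic proteins on it. RPLP2 had 0, 1.33 and 0.208 FPKM in the 4-cell embryos of IVF, 0, 0.289 and 0.488 FPKM in those of PA, and 7.38 and 5.16 FPKM in the 8-cell embryos (2.57 ± 0.50 and 2.31 ± 0.50, both called). RPLP0 (ENSSSCG00000036014, chr14:40219124-40223943, minus strand) had 4.55, 23.9 and 35.4 FPKM at the 4-cell stage of IVF and 9.89 FPKM at its 8-cell stage. In PA it had 56.3, 7.36 and 0.120 FPKM, then 235 FPKM. The 3 IVF 8-cell blastomeres had 8.00, 9.32 and 12.4 FPKM and the 3 PA blastomeres 158, 189 and 359 FPKM, which do not overlap. The method by stage interaction of RPLP0 was -5.51 ± 2.26, the lowest of the 51, with an unadjusted p of 0.0248 and an adjusted p of 0.237. It was not called, and neither was any other ribosomal protein gene, where 2.86% of all genes were called. RPL19 was called without IVF 8-cell blastomere 1-2.

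The 2 8-cell embryos can be set side by side by their values alone. Of the 51 genes, 36 differed by less than 1 on the log2(FPKM + 1) scale, 9 were higher in IVF and 6 in PA by 1 or more. Of all genes tested, 19.4% and 19.3% were. The median difference was -0.01. The 3 blastomeres of each embryo did not overlap for 5 genes higher in IVF and 3 higher in PA, against 5.88% and 2.87% of all genes. RPL7A, of the large subunit, had 27.2 to 56.6 FPKM in the IVF and 2.46 to 13 FPKM in the PA blastomeres. RPL30 had 36.8 to 46.7 and 7.67 to 12.1 FPKM, and RPL3, at the peptidyl transferase centre, 9.40 to 39.0 and 0.148 to 7.66 FPKM. RPL11 was higher in PA, with 37.0 to 58.3 against 7.07 to 26.1 FPKM. With 1 embryo of each method, the method and the embryo cannot be told apart.

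Between the zygotes and the 8-cell embryos, 38 of the 51 genes were called in IVF and 35 in PA, all higher, beside 6.03% and 7.58% of all genes called higher. Medians over the 51 were 3.65 in IVF and 3.13 in PA, beside -0.77 and -0.58 over all genes tested. The largest were RPS3A (8.91 ± 1.52 in IVF, 7.91 ± 1.52 in PA) and RPS16 (8.71 ± 1.73, 8.19 ± 1.73), then RPS9 (6.99 ± 1.83, 6.84 ± 1.83) and RPL17-C18orf32 (6.92 ± 1.43, 6.40 ± 1.43). RPS9 and RPL17-C18orf32 need care. RPS9 overlaps a gene on the other strand that followed it over the cells (r = 0.991), as do RPL3 (0.975) and RPL10 (0.908), and RPL17-C18orf32 is the annotated readthrough of RPL17 and the gene after it. Of the 5 genes most abundant in the early embryos, RPS3 (3.80 ± 1.46 and 2.52 ± 1.46), RPL15 (3.05 ± 1.37 and 1.79 ± 1.37), RPL5 (2.45 ± 0.94 and 2.43 ± 0.94) and RPLP0 (0.89 ± 1.60 and 4.66 ± 1.60) were called in neither method. RPSA was called in IVF (5.25 ± 1.69), though not without blastomere 1-2 (4.85 ± 1.69), and was not called in PA (4.29 ± 1.69).

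RPL10 is a late-joining protein of the large subunit, and RPL10L its intronless copy known from the male germ line. RPL10 had at most 1.74 FPKM in the zygotes and 2-cell embryos and 46.0 (IVF) and 30.5 FPKM (PA) in the 8-cell embryos. RPL10L (ENSSSCG00000005001, chr1:176603248-176603892, minus strand) had 0, 4.49 and 0.899 FPKM in IVF zygotes and 0.536, 0 and 12.8 FPKM in PA zygotes, and was at 0 in both 8-cell embryos (-1.13 ± 1.03 and -1.47 ± 1.03 against the zygotes, not called). RPL7L1, a relative of RPL7 that takes part in ribosome assembly, had 0.0395 to 1.83 FPKM in all zygotes and 68.4 and 121 FPKM in the 8-cell embryos (5.30 ± 1.36 and 6.24 ± 1.36, both called). RPL26L1 reached 12.8 FPKM in the IVF and 4.17 FPKM in the PA 8-cell embryo, beside 1.6 and 4.60 FPKM of its partner RPL26. The IVF mean of RPL26L1 came mostly from blastomere 1-2, with 34.7 FPKM, and the PA mean from 1-2, with 11.8 FPKM, so that no order of the pair is read from these means. RPS27L had 2.65 and 2.77 FPKM in the 8-cell embryos and 0.0261 to 4.97 FPKM in the 4-cell embryos, and was not called in any comparison.

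Of the 2 places named RPL36AL, the copy on chromosome 1 (ENSSSCG00000005006, chr1:179476638-179479147, minus strand) had at most 1.77 FPKM in the 4-cell embryos and 23.2 and 7.51 FPKM in the 8-cell embryos (3.75 ± 0.59 and 3.07 ± 0.59, both called). The copy on chromosome 16 (ENSSSCG00000035738, chr16:44332781-44333101, minus strand) spans 321 bases inside NLN, a gene on the other strand. It had 4.97 FPKM in 1 IVF zygote, at most 0.799 FPKM in the other embryos, and 0 and 0.213 FPKM in the 8-cell embryos. Only 114 reads were recovered for it over the 42 cells, against 3373 for the copy on chromosome 1. Reads from near-identical copies may have been split or dropped between the places, as the handling of such reads is not given in the sources used here.

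The 3 genes below the filter were at 0 in most embryos. RPL13 had 0.0563 and 0.202 FPKM in the 8-cell embryos and 0 in the other 18. RPL10A was found in 1 IVF 4-cell embryo alone, with 0.580 FPKM. RPS19BP1, which the rule takes by its name but which binds RPS19 rather than being part of the ribosome, had 2.04 FPKM in the PA 8-cell embryo. Levels of different genes depend on the gene length behind the FPKM. The lengths that the FPKM imply, anchored on 507 genes whose length equals their span, run from 321 to 6013 bases over 53 members with a median of 1699, although the mRNAs of most ribosomal proteins are short. RPL7A has 6013, RPL3 5881, RPL35 3688 and RPS16 567 bases, so a gene model with long extra exons has a low FPKM for its reads.

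Over the 20 embryos most of the genes moved together, which describes these libraries and gets no test, since the genes share library, depth and scaling. The median Pearson's r of log2(FPKM + 1) over the 1275 pairs was 0.701, from -0.424 to 0.989. With the mean of all other members, r was above 0.8 for 32 of 51, and highest for RPS15 (0.981), RPL35 (0.980) and RPS13 (0.977). It was lowest for RPL10L (-0.26), RPL36AL of chromosome 16 (-0.18), RPS27L (0.31) and RPLP0 (0.55). Of all other genes tested, SLC34A2 (0.983), AEBP2 (0.981), P2RY11 (0.980), EIF3G (0.976), CPT1A (0.973), DLC1 (0.970), NR5A2 (0.967) and TAC1 (0.967), with 2 genes that have no name in the table, were most like the mean of the members.

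The starts of the genes were read from the Sscrofa11.1 genome at the first base of each deposited gene model. Windows from 40 bases before to 20 bases from the start on are shown for 5 genes with a pyrimidine run at or next to the start, because a pyrimidine run at the start is what mRNAs of this class are known for. Capitals mark the run.
RPL9 (chr8:30699170-30699229, minus strand): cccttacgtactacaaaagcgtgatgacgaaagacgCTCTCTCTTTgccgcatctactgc
RPLP0 (chr14:40223924-40223983, minus strand): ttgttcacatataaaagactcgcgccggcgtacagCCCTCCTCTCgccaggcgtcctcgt
RPLP2 (chr2:507856-507915, plus strand): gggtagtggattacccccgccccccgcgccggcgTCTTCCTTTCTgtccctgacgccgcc
RPL27 (chr12:19894462-19894521, minus strand): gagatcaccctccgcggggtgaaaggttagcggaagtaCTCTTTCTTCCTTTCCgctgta
RPL26 (chr12:53553436-53553495, minus strand): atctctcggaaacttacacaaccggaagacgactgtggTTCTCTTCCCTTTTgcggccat

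RPL9 and RPLP2 were called higher at the 8-cell stage than in the zygotes in both methods, RPL26 in PA alone, and RPLP0 and RPL27 in neither. The 2 members with the lowest correlation with the others, RPL10L and RPL36AL of chromosome 16, have no run of 8 there. The next lowest, RPS27L (0.31) and RPLP0 (0.55), have runs of 8 and 10. Of the highest, RPS15 (0.981) and RPS13 (0.977) have no run of 8, and RPL35 (0.980) has a run of 19. A link between the run and the correlation was not tested. The annotated start of RPL10L and of this copy of RPL36AL is a start codon, marked in capitals in the same windows.
RPL10L (chr1:176603873-176603932, minus strand): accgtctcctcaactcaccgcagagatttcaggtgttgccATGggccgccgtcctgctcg
RPL36AL (chr16:44333082-44333141, minus strand): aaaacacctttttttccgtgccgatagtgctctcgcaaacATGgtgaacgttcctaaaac

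A run of at least 8 C or T that reaches within 20 bases of the start was found for 27 of the 54 genes (50%), against 21.8% of 14915 protein-coding genes of the table. In windows from 250 bases before to 50 bases from the start on, the letters CCGGAAG (an ETS motif, both strands) were found for 33.3% of the members against 11.7% of all genes, and the shorter ETS letters GGAAGT for 44.4% against 21.7%. AAGATGG (YY1) was found for 6 of the 54 members against 6.60% of all genes, GGGCGG (SP1) for 59.3% against 51%, and TATAAA for 13% against 10.3%, all on both strands. CTTTCC on the gene's own strand was found for 24.1% against 13.7%. GGAAGT can overlap CCGGAAG by 5 letters. A match is a description of letters, and a missing run may come from a gene model that starts elsewhere. From the 4- to the 8-cell stage 15 of 26 tested members with the run and 14 of 25 without it were called in PA, and 4 of 26 and 6 of 25 in IVF. From the 1- to the 8-cell stage 20 of 26 with the run and 15 of 25 without it were called in PA, with median log2 fold changes of 3.87 and 2.66, and 19 of 26 and 19 of 25 in IVF, with medians of 3.38 and 3.80. These counts and medians include the 10 members that passed the filter only through 8-cell blastomeres, for which the filter favours a rise to that stage. Of those, RPL23, RPL26, RPL35, RPLP2, RPS18 and RPS26 have the run. RPL39, RPS23, RPS29 and RPL36AL of chromosome 1 do not. The differences between members with and without the run were not tested.

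The 13 ribosomal protein genes named by the reference table of gene names alone form a separate list. Of 12 tested, 1 was called higher from the 2- to the 4-cell stage in IVF (RPLP1, 4.21 ± 0.81), beside 0.616% of all genes. From the 4- to the 8-cell stage 2 in IVF and 6 in PA were called higher, beside 3.72% and 6.81% of all genes. From the zygote to the 8-cell stage 10 and 8 were, beside 6.03% and 7.58%. RACK1, a scaffold on the small subunit, rose from the zygote to the 8-cell stage by 9.56 ± 1.86 in IVF and 6.66 ± 1.86 in PA. FAU was not analysed here. Of 13 tested mRNAs of a list of other genes known to start with a pyrimidine tract, which includes RACK1, 5 in IVF and 6 in PA were called higher from the 4- to the 8-cell stage, among them the elongation factor genes EEF1G (4.78 ± 0.72 and 4.75 ± 0.72) and EEF1D (3.67 ± 0.78 and 5.44 ± 0.78). The median log2 fold changes of this list were 3.46 and 4.11, beside -0.38 and -0.15 over all genes tested. Over all genes, 3.72% and 6.81% were called higher in this step. Which genes of both lists passed the filter only through 8-cell blastomeres is not given here. PABPC1, the poly(A)-binding protein, was called already from the 2- to the 4-cell stage in both methods (3.82 ± 0.74 and 4.89 ± 0.74).

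Other lists hold genes that build ribosomes. Of 52 tested assembly factors, 4 in IVF and 8 in PA were called higher from the 4- to the 8-cell stage, beside 3.72% and 6.81% of all genes, with medians of 0.43 and 0.85. GAR1, of box H/ACA snoRNPs, rose in both (6.76 ± 1.51 and 4.96 ± 1.51), as did PNO1, which acts in small subunit assembly (1.58 ± 0.41 and 2.44 ± 0.41). Over all 8116 genes, 264 were called lower in this step in IVF and 258 in PA. Of 19 tested genes for RNA polymerases I and III and rDNA transcription, 0 were called higher in this step in either method and 1 lower in IVF (GTF3C2, -4.36 ± 1.05). Of 12 tested genes of mTOR control, 1 was called lower in IVF (RHEB, an activator of mTOR, -3.92 ± 1.02) and none was called in PA. Among 49 tested mitochondrial ribosomal protein genes, 2 were called higher and 1 lower in IVF, and 10 higher and 0 lower in PA, with medians of 0.28 and 0.60. The 13 mRNAs of the mitochondrial genome had medians of 0.77 and 0.89 in this step, and 0 and 1 of them were called.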

How the data were processed

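Per the paper's methods, single cells were lysed and their cDNA amplified by Ansuper-seq, a method not limited to polyadenylated RNA, and sequenced on a HiSeq X-Ten. HISAT2 (alignment to Sscrofa11.1), StringTie (assembly) and HTSeq (counting) were used. The authors deposited FPKM per gene and cell. The labels describe another extraction (Trizol and bulk libraries of oocytes). Versions, annotation release, strandedness and the handling of reads with several places are not given in the sources used here.

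The members and all gene lists were chosen with earlier results of these data known. A gene was tested where 3 or more cells reached 1 FPKM. FPKM were averaged over the blastomeres of each embryo, a pseudocount of 1 was added, and log2 values were fitted for 20 embryos in 8 groups with limma 3.58.1 (trend) in R 4.3.3, with Benjamini-Hochberg adjustment over all 8116 genes. Adjusted p-values are from this fit. The fit was also run on simulated data with the same spread in all groups. Such data cannot test the spread assumed for the 8-cell embryos, and nothing is concluded from them. Interactions compare a step between methods. Reads were recovered from the steps of the FPKM, whole within 0.02 read. Errors are from the spread between embryos, since reads of amplified cDNA are not single molecules. Genes named in the text are members with fixed roles, paralogues, the 5 largest calls without overlap in each comparison, the highest and lowest members, and called genes of the other lists. Some genes that the rule names are not reported here. Other members named for their values, such as those that differ between the 8-cell embryos, were chosen after seeing them. Sequences were read from the RefSeq copy of Sscrofa11.1. Python 3.11.15, numpy, pandas and matplotlib were used. Alternatives were another pseudocount, filter or scaling, the mean of log2 values, blastomeres as samples, fewer groups, a replicate block, and each embryo or 8-cell blastomere left out. The embryo numbers pair nothing in the labels. Same-numbered PA 2- and 4-cell embryos correlated in their deviations from the group means (0.355, 0.282 and 0.100 for embryos 1, 2 and 3), and without the repeating 4-cell blastomeres the values were -0.013, 0.009 and -0.006, so the numbers were not taken as pairs.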

Additional observations from a re-analysis of the deposited data

Results flagged for a closer look

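The PA 4-cell blastomere 2-4 stood apart from the other 8 PA 4-cell blastomeres in the share of its summed FPKM that the 54 ribosomal protein genes held (0.423%). The share was 0.0655% to 0.195% in the others. A test of this kind flags about 1 group in 20 by chance, and it was run over several groups and measures. It did not flag this cell by its summed FPKM or by its number of genes at FPKM of at least 1. RPS16 made up 283 of the 538 FPKM in this cell.

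The mean of RPS28 in the 8-cell embryo lay above all 4-cell embryos in PA and below all of them in IVF. In PA the 4-cell embryos had 3.20, 5.78 and 6.45 FPKM and the 8-cell embryo 25.1 FPKM, and in IVF the 4-cell embryos had 4.17 to 12.7 FPKM and the 8-cell embryo 4.10 FPKM. Both 8-cell means rest on 1 cell, as the IVF blastomeres had 0.307, 11.07 and 0.914 FPKM and those of PA had 6.15, 64.9 and 4.30 FPKM. Neither step was called. The interaction was -2.75 ± 1.34 (limma, log2 scale) and was not called.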

How the results depend on the processing

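All values are counts of the 51 tested genes that were called, unless said otherwise. The share of all genes called under the same setting is not given beside them here. For the IVF step from the 2- to the 4-cell stage (1), the count was 0 with no filter, with scaling by the median ratio over nuclear genes, with only the groups compared, and without the PA blastomeres 1-4 and 2-1, 2 with the mean of log2 values and 3 with blastomeres as samples. For the IVF step to the 8-cell stage (10) it was 1 and 20 with pseudocounts of 0.1 and 5, 31 with median ratio scaling, 21 with the mean of log2 values, 32 with blastomeres as samples, 0 with only the groups compared and 5 with the filter decided by 1- to 4-cell stage cells, an alternative chosen after seeing the data. For the same step in PA (29) it was 14 with a pseudocount of 0.1 and 1 with only the groups compared. For PA from the 2- to the 4-cell stage (0) it was 5 with median ratio scaling and 2 without the repeating blastomeres, for the methods compared in 4-cell embryos (0) 2 and 2, and for the interaction from the 4- to the 8-cell stage (0) 3 with no filter and 1 with median ratio scaling or, chosen after seeing the data, without IVF 8-cell blastomere 1-2. The cause of these shifts was not tested. The summed FPKM of PA zygotes (138) was 149.7 with nuclear genes rescaled to one total, and that of PA 4-cell embryos (227) was 272.0 so rescaled, 258.6 without the repeating blastomeres and 144.3 without RPS16.

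With each embryo left out in turn, the counts ranged from 0 to 15 (IVF, 2- to 4-cell), 9 to 24 (IVF, 4- to 8-cell), 29 to 42 (IVF, 1- to 8-cell), 0 to 1 (PA, 2- to 4-cell), 24 to 31 (PA, 4- to 8-cell), 28 to 36 (PA, 1- to 8-cell), 0 to 12 (IVF against PA, 4-cell) and 0 to 1 (both later interactions), and stayed 0 elsewhere. The 15 and the 12 came without IVF 4-cell embryo 1, and the 24 without IVF 4-cell embryo 2. An 8-cell embryo left out gives no value for its own comparisons. Same-numbered embryos had correlations of -0.041 to 0.355 (median 0.008), the highest between PA 2- and 4-cell embryos 1 and 2, which hold the repeating blastomeres. With the replicate block the counts in the same order were 1, 13, 34, 0, 29 and 35, and 0 elsewhere. Over 21 results on single genes, 717 alternatives kept the call, 62 lost it and 0 reversed it. These results were picked as the largest calls of the same data. Many alternatives left out an embryo or blastomere outside the groups compared, so these numbers do not measure how firm the calls are. With 1 embryo of each method at the 8-cell stage, its spread is assumed and not measured.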
